A study of Rattus norvegicus with 12 samples.

Results

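Carbonic anhydrases are zinc enzymes that convert carbon dioxide and water into bicarbonate and a proton, and back. Cytosolic forms buffer the cell interior, a mitochondrial form supplies bicarbonate to carboxylases of the matrix, and membrane-bound forms with an outward-facing active site handle the carbon dioxide, lactate and protons that contracting muscle releases. A few family proteins have lost the enzyme activity and keep only the fold. The 9 carbonic anhydrase genes described here, Car2, Car3, Car4, Car5b, Car8, Car9, Car12, Car13 and Car14, were taken by symbol from the 18166 genes measured, each from a probe set that carries no other gene. Each of them, and each of the 6 further family genes measured (Car1, Car5a, Car6, Car7, Car11 and Car15), was read by a single probe set. Car10 was not analysed here.

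Whole urinary bladders of female Sprague Dawley rats of about 3 months were compared, 6 taken 10 days after surgery with freezing of the ganglia on both sides (denervated) and 6 after sham surgery. Total RNA of each bladder sample was hybridised to 1 array, and values are log2 expression after RMA, which corrects background, makes the arrays' distributions alike and condenses the probes of a set into one value. How complete the denervation was, and whether every array came from a separate animal, is not given in the sources used here, so p-values measure the spread between these samples. The labels give the tissue as over 95% smooth muscle. The mean level of 12 smooth muscle markers was 11.0 to 11.6 in denervated and 11.7 to 11.8 in sham arrays, far above the array medians of 5.82 to 5.90, but that of 17 urothelium markers was also high (9.58 to 10.0 in denervated and 10.4 to 10.7 in sham arrays). One denervated array, replicate 2, lay between the groups. Its score on the first principal component was -5.84, where the remaining denervated arrays scored 25.9 to 42.5 and sham arrays -30.2 to -22.5.

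Denervated bladders had less Car14, Car12, Car2 and Car5b RNA than sham bladders and more Car9 RNA. Car14 was 3.52-fold lower, Car12 1.61-fold, Car2 1.60-fold and Car5b 1.25-fold, and Car9 was 1.90-fold higher. The other 4 members, Car3, Car4, Car8 and Car13, were not called. A gene was called where its adjusted p in limma, Benjamini-Hochberg over all genes, was under 0.05, and "rose" and "fell" are used of called genes only. In all, 5 of the 9 members were called, against a background of 28.7% of all genes (11.9% higher and 16.9% lower). The same shares are the background for each count of called genes below. The median log2 difference, denervated minus sham, was -0.26 over the 9 members and -0.04 over all genes. In whole tissue, fewer cells of a type and less RNA per cell cannot be told apart.

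**Figure D1:**
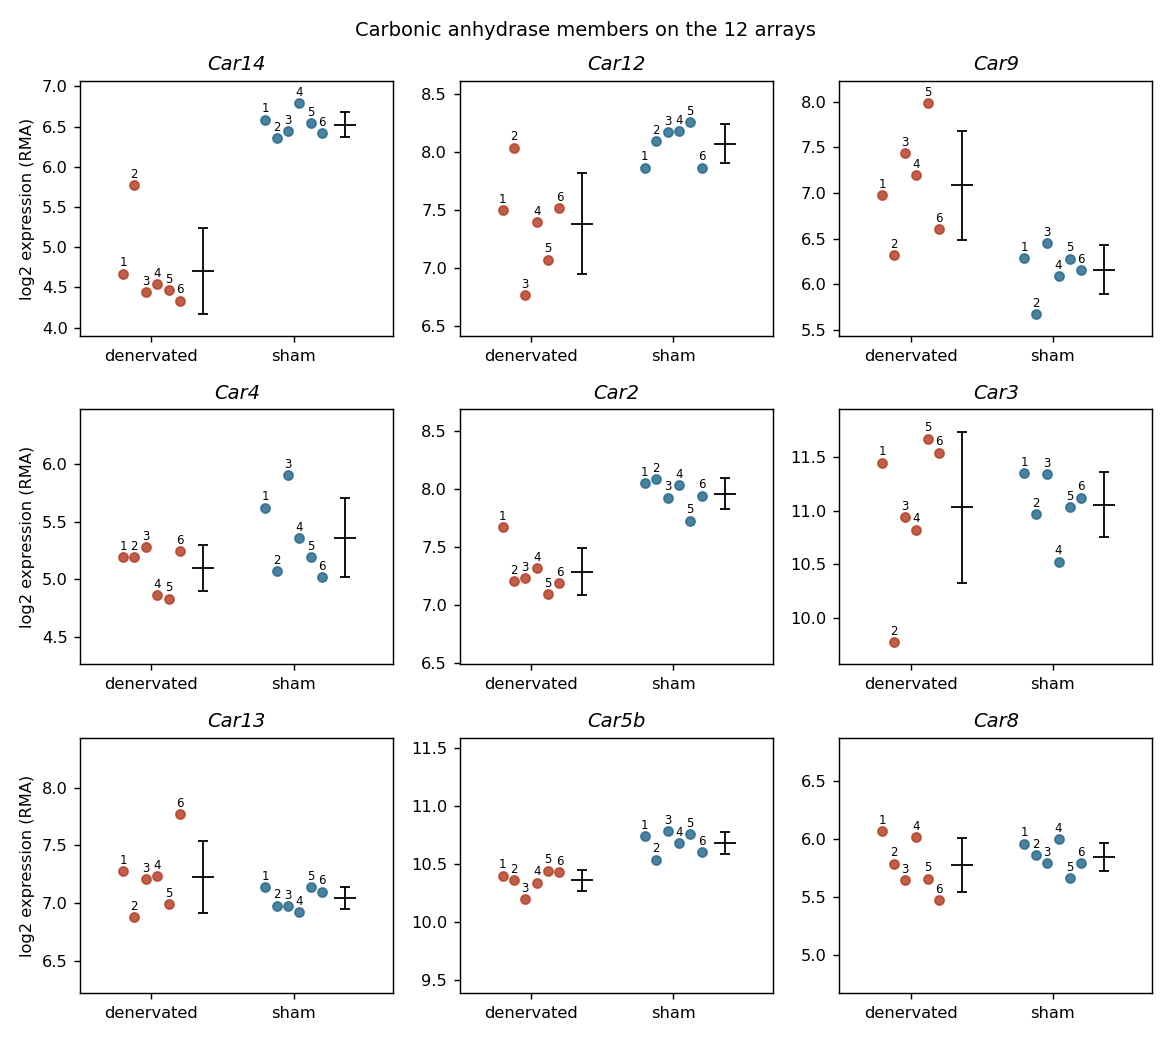
Log2 expression (RMA) of the 9 members on each array, with denervated arrays on the left and sham arrays on the right of each panel. Numbers are replicate numbers, the bar and whiskers are the group mean and SD (n = 6), and each vertical axis spans at least 2 log2 units around the gene's own values. Car14, Car2 and Car5b have no overlap between groups, and denervated replicate 2 lies apart in the panels of Car14, Car12 and Car3.

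The promoters of the 3 membrane-bound members that were called are shown here because they include both the family's rise and its largest fall. CA9 in human cells is a textbook target of the hypoxia-inducible factors, which bind a core that can be written ACGTG, and the human gene carries such an element next to its start. RefSeq windows of GRCr8 from 250 bases before to 50 bases after the start were searched for ACGTG on both strands, so that CACGT marks a match on the other strand and the letters CACGTG would be a match on both. They are printed 5′ to 3′ on the gene's strand, with matches in capitals.
Car9, chr5:62558774-62559073, plus strand: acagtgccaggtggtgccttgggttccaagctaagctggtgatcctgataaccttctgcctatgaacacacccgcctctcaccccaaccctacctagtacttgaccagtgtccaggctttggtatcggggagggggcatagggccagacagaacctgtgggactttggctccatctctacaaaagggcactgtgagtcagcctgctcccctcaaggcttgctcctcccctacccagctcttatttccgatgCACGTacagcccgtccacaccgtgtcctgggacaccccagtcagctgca
Car12, chr8:76169565-76169864, plus strand: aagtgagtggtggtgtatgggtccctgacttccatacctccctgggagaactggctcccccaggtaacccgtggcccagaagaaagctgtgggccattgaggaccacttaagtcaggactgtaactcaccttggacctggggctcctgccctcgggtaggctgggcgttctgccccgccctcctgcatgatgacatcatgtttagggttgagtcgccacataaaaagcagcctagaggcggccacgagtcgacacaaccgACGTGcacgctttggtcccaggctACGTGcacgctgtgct
Car14, chr2:186138115-186138414, minus strand: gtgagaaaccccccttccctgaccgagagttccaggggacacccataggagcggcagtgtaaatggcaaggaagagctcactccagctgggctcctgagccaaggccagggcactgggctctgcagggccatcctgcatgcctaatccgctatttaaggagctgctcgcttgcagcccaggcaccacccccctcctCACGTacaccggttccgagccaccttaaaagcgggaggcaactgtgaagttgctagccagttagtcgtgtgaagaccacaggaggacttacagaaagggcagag
The letters occurred once in the Car9 window, starting at base 2 of the gene, where the human element also lies close to the start. They occurred at 2 places in the Car12 window, from bases 11 and 35 of the gene, and once in the Car14 window, 54 bases before the start. The Car4 window held 2 matches and the Car5b window 0, and 19.3% of all 33469 windows of this length held at least 1. No window was at hand for Car2, Car3, Car8 and Car13, so these members were not searched. Of the 5 members searched, 4 thus held the core: Car9, which rose, Car12 and Car14, which fell, and Car4, which was not called.

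Car14 is a membrane-bound enzyme with its active site outside the cell, known in rodents from the surface of muscle fibres, neurons and retinal glia. It gave the lowest, median and highest values of 4.34, 4.51 and 5.77 in denervated arrays, against 6.35, 6.49 and 6.79 in sham arrays. The groups did not overlap, and the highest denervated value was that of replicate 2. Car14 fell by 1.82 ± 0.20 in log2 units (SE, 6 arrays a group, limma adjusted p = 9.73e-05), and 14 of the 18166 genes had a lower log2 difference. Without denervated replicate 2 the difference was -2.03. The denervated mean of 4.71 ± 0.53 (SD) lay below the array medians, so its signal over background there is unknown and the size of the fall is uncertain. Denervated values lay wholly below sham values for 7.59% of all genes and for 3 of the 9 members, Car14, Car2 and Car5b, and wholly above them for 5.76% of all genes and for 0 members.

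The 3 genes whose profile over the 12 arrays was nearest to that of Car14 were Gsn, Gstm7 and Slc25a23, by the root mean square difference after each gene was centred on its mean (0.18, 0.19 and 0.19 log2 units). Gsn encodes gelsolin, which severs actin filaments. It stood at 10.7 to 11.1 in 5 denervated arrays and at 12.2 in denervated replicate 2, against 12.5 to 12.7 in sham bladders, and fell by 1.52. Gstm7, a glutathione transferase, fell by 1.58, and Slc25a23, a mitochondrial carrier of adenine nucleotide and phosphate, by 1.54.

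Some markers of Schwann cells and neurons also fell. Of 12 Schwann cell markers 5 fell and 0 rose, led by Scn7a (-3.15), Cdh19 (-2.21), S100b (-0.84) and Sox10 (-0.36). The other 7 were not called, from Erbb3 (-0.29) to Gfap (0.16), and the list's median log2 difference was -0.19. The mean of the 12 markers, which Scn7a and Cdh19 weigh on most, lay 0.65 to 0.83 below the sham mean in 5 denervated arrays. It lay 0.18 below in replicate 2. The list's mean level was 6.68 to 7.33 in denervated and 7.43 to 7.56 in sham arrays. Of 14 neuron markers 4 fell and 1 rose, where 16.9% of all genes fell and 11.9% rose. The axonal genes Nefl (-2.23), Stmn2 (-1.21) and Syt1 (-1.21) were lower and Tubb3 (1.34) was higher, with both Tubb3 means below the array medians. Mean levels of the neuron list were 5.80 to 6.24 in denervated and 6.22 to 6.45 in sham arrays. In denervated replicate 2 the neuron mean, 0.10 below the sham mean, lay within the range of the sham arrays. The mean of the smooth muscle markers was also nearest to sham in replicate 2, at -0.09 against -0.70 to -0.29 in the other 5 denervated arrays. No marker can be at 0 on this scale. The part of Schwann cells, neurons or smooth muscle in the Car14 result was not tested.

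Car12 is a further membrane-bound enzyme with an outward-facing active site, found in many epithelia. Its lowest, median and highest values were 6.77, 7.45 and 8.04 in denervated arrays, against 7.87, 8.13 and 8.26 in sham arrays. In 5 denervated arrays Car12 lay below every sham array, and replicate 2 lay within the sham range. It fell by 0.69 ± 0.17 (SE, n = 6 per group, limma adjusted p = 0.00836), and the difference was -0.82 without denervated replicate 2. Of 17 urothelium markers 16 fell and 0 rose, led by the superficial cell keratin Krt20 (-1.80), Grhl3 (-0.88), Psca (-0.87) and Upk3b (-0.83), while Elf3 stood at -0.23. Their mean lay 0.48 below the sham mean in replicate 2 and 0.53 to 0.92 below it in the other 5 denervated arrays. The sham arrays ranged from -0.09 to 0.15 on this urothelium mean. The part of urothelium in the Car12 result was not tested.

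Car9 is the membrane-bound enzyme best known for its induction by low oxygen. It gave 6.32, 7.09 and 7.99 in denervated arrays as lowest, median and highest value, against 5.68, 6.22 and 6.45 in sham arrays. In 5 denervated arrays Car9 lay above every sham array, and replicate 2 lay among the sham values. Car9 rose by 0.93 ± 0.24 (SE, n = 6 per group, limma adjusted p = 0.00992). The denervated values spread widely, with an SD of 0.60 against 0.27 in sham arrays. The difference was 0.75 without denervated replicate 5, which had the highest value, and 1.08 without replicate 2.

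Targets of hypoxia went both ways. Of 24 genes known as targets of hypoxia-inducible factors 8 rose, 4 fell and 12 were not called. The share that rose was above the 11.9% of all genes, and the share that fell was near their 16.9%. The median log2 difference was -0.05 over the list and -0.04 over all genes. Angptl4, an inhibitor of lipoprotein lipase, rose by 1.47 ± 0.28, P4ha1, a subunit of collagen prolyl hydroxylase, by 0.75 ± 0.11, and the regulator of glycolysis Pfkfb3 by 0.56. Egln3, an oxygen-sensing prolyl hydroxylase, fell by 0.98 ± 0.19 (SE, limma adjusted p = 0.00217). Averaged over these genes, denervated arrays lay 0.03 to 0.15 above the mean of the sham arrays, which themselves ranged from -0.06 to 0.04. The number of targets that rose was 5 when sham replicate 1, 2 or 6 or the fifth denervated array was left out. It was also 5 after centring on medians, and 4 by an exact rank-sum test.

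Car4, anchored to the outer membrane by a lipid and known from capillary endothelium, was not called. Its values of 4.83, 5.19 and 5.28 in denervated arrays overlapped those of sham arrays (5.02, 5.27 and 5.90 as lowest, median and highest), and 2 denervated arrays lay below the sham range. The difference was -0.26, with a 95% interval of -0.58 to 0.06 (limma adjusted p = 0.216), and both means lay below the array medians. Of 11 endothelium markers 6 rose and 0 fell, led by Aplnr (1.05), Cdh5 (1.00), Gpihbp1 (0.86) and Tie1 (0.40).

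**Figure D2:**
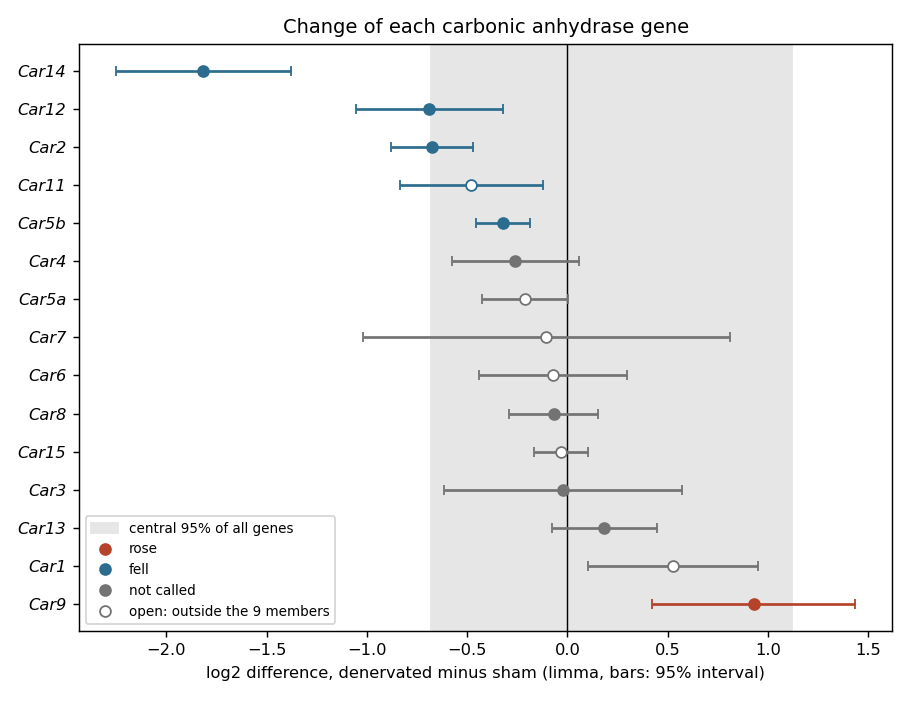
Log2 difference (denervated minus sham, horizontal axis) of the 15 carbonic anhydrase genes with 95% intervals from limma. Filled points are the 9 members, open points the other 6 genes, and the grey band holds the central 95% of all genes, from -0.68 to 1.12. Car14 lies outside the band and Car12 just beyond its lower edge.

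Among the cytosolic members, Car2 fell and Car3 and Car13 were not called. Car2 is the fast, widely expressed enzyme known from red cells, kidney and osteoclasts. It gave 7.09, 7.22 and 7.67 in denervated arrays as lowest, median and highest value, against 7.73, 7.99 and 8.08 in sham arrays. The groups did not overlap, and denervated replicate 2, at 7.20, lay within the range of its group. Car2 fell by 0.68 ± 0.10 (SE, n = 6 per group, limma adjusted p = 0.000343). It was called in all 21 alternative analyses, with differences between -0.75 and -0.64.

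Among markers of cell types known for abundant Car2, none fell in the red cell list and none in the macrophage and osteoclast list. Of 6 red cell markers 0 were called, with Hba-a1 at 0.10 ± 0.19 and mean levels of 5.39 to 5.86 in denervated and 5.59 to 5.72 in sham arrays. By an unadjusted limma p under 0.05 the count was also 0, as it was by the adjusted rank-sum test. Of 8 markers of macrophages and osteoclasts 8 rose, among them Cd68 (2.20), Lyz2 (2.11), Cybb (1.78) and Adgre1 (1.39), with mean levels of 9.29 to 9.95 in denervated and 8.12 to 8.40 in sham arrays. Of 12 smooth muscle markers 8 fell and 1 rose. The largest falls were those of Mylk (-0.99), Synpo2 (-0.99), Myocd (-0.89) and Lmod1 (-0.75), and Smtn rose by 0.51. Actg2 (-0.01), Des (-0.10) and Cald1 (-0.14) were not called, and the list's median log2 difference was -0.32. The part of smooth muscle or urothelium in the Car2 result was not tested.

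Car3 is a slow enzyme, abundant in adipocytes and in slow skeletal muscle fibres. Its probe set was bright throughout, with 9.77, 11.2 and 11.7 in denervated arrays as lowest, median and highest value, against 10.5, 11.1 and 11.4 in sham arrays. The denervated values lay on both sides of the sham range, and the lowest was that of replicate 2. The difference was -0.02 ± 0.28, with a 95% interval of -0.62 to 0.57, and turned to 0.23 without denervated replicate 2, in both cases not called (limma adjusted p = 0.963 and 0.368).

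Car3 and the adipocyte markers were high and low in the same denervated arrays. The mean of 18 adipocyte markers lay 0.16, 0.24 and 0.20 above the sham mean in denervated replicates 1, 5 and 6, the arrays highest in Car3. It was at -0.49 in replicate 2, the array lowest in Car3, and at -0.38 and -0.17 in replicates 3 and 4. Of these markers 2 rose and 4 fell, Cfd (1.34), Plin4 (-0.85), Cidea (-0.80) and Pnpla3 (-0.66) with the largest changes, while Adipoq stood at -0.24 ± 0.56. The count of 2 was 1 when denervated replicate 1, 4, 5 or 6, or any sham array but the third, was left out. Of 10 skeletal muscle markers 2 fell, Ckm (-1.07) and Tnnc2 (-0.78), and 1, Acta1 (1.56), rose, near the 16.9% and 11.9% of all genes. The part of fat or striated muscle in the spread of Car3 was not tested.

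Car13, a cytosolic enzyme of many tissues, gave 6.88, 7.22 and 7.77 in denervated arrays and 6.93, 7.04 and 7.14 in sham arrays as lowest, median and highest value. Of the denervated arrays, 4 lay above the sham range, led by replicate 6, and replicate 2 lay below it. The difference was 0.18, with a 95% interval of -0.08 to 0.45 (limma adjusted p = 0.293). Car2, Car3, Car1 and Car13 follow each other in this order on chromosome 2, with no other protein-coding gene between them in the RefSeq table of GRCr8. Of these 4 neighbours only Car2 was called, and Car1 and Car13 had positive differences.

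Car5b, the mitochondrial member, fell little and evenly. Its lowest, median and highest values were 10.2, 10.4 and 10.4 in denervated arrays, against 10.5, 10.7 and 10.8 in sham arrays. The groups did not overlap, and the SDs of 0.09 in denervated and 0.10 in sham arrays were the smallest in the denervated group and, after Car13, in the sham group among the 9 members. Car5b fell by 0.32 ± 0.06 (SE, n = 6 per group, limma adjusted p = 0.00227). Car5a, the other mitochondrial form, known from liver, was not called (-0.21 ± 0.10, adjusted p = 0.134).

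Most enzymes that consume bicarbonate in carboxylation fell as well. Of 9 such genes 7 fell and 0 rose, with a median log2 difference of -0.30. Pcca, of propionyl-CoA carboxylase, fell by 0.67 ± 0.10, Mccc2, of methylcrotonyl-CoA carboxylase, by 0.52 ± 0.07, the mitochondrial acetyl-CoA carboxylase Acacb by 0.50, and pyruvate carboxylase Pc by 0.34. Both Acacb means lay below the array medians. Cps1 (-0.02) and Cad (0.07), which use bicarbonate for carbamoyl phosphate, were not called. The mean of the 9 genes lay 0.14 below the sham mean in denervated replicate 2 and 0.30 to 0.39 below it in the other 5. Car5b did not share this pattern, since its value in replicate 2 (10.36) lay within the range of the other 5 (10.19 to 10.44). The lipid synthesis list had 8 of 12 genes lower and 0 higher, led by Scd (-3.01), Thrsp (-1.87), Elovl6 (-0.50) and Gpam (-0.46).

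Car8 has lost the enzyme activity and is known, from mouse brain, as a binding partner of the type 1 receptor for inositol trisphosphate. Its values of 5.47, 5.72 and 6.07 in denervated arrays enclosed the 5.66, 5.82 and 5.99 of sham arrays. The difference was -0.07, with a 95% interval of -0.29 to 0.15 (limma adjusted p = 0.669). The receptor genes moved apart, with Itpr1 at -0.50 ± 0.12 (called), Itpr2 at 0.26 ± 0.05 (called) and Itpr3 at 0.03.

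**Figure D3:**
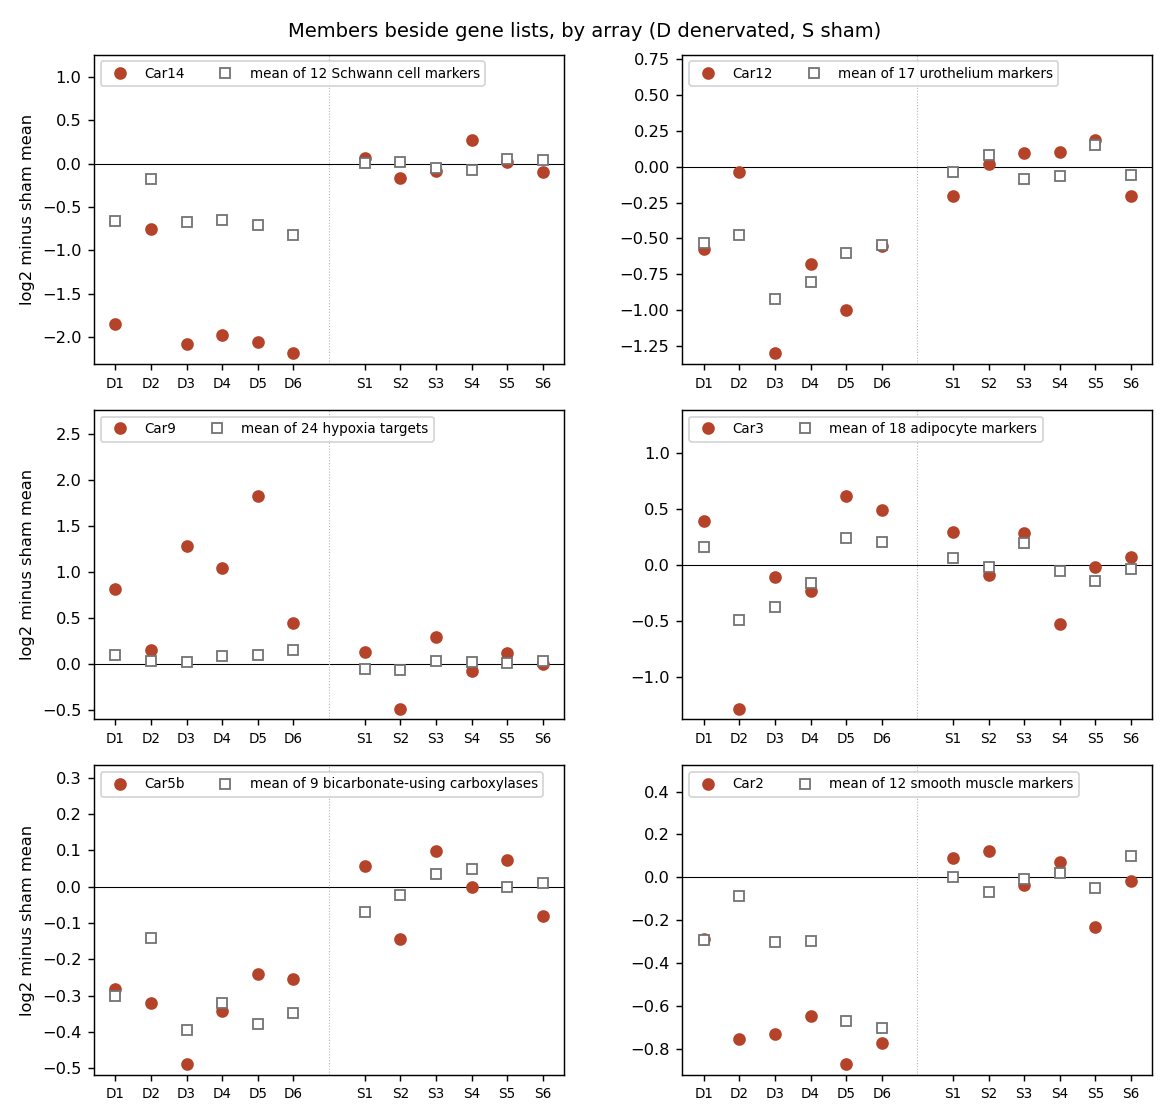
Difference from the sham mean (log2, vertical axis) on each array, denervated arrays D1 to D6 on the left and sham arrays S1 to S6 on the right. Filled points are a carbonic anhydrase and open squares the mean of a gene list. In denervated replicate 2 Car14 and the Schwann cell markers lie nearer to the sham arrays than in the other 5. So do the means of the smooth muscle markers and of the carboxylases. The urothelium mean is only slightly nearer there, at -0.48 against -0.92 to -0.53 in the other 5. Car3 and the adipocyte markers both have their lowest values in that array.

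The members' changes were also set against each other. For each of the 36 pairs the per-array difference of the log2 values was compared between groups with a two-sided exact permutation test (n = 6 per group, smallest possible p = 0.00216), adjusted over the pairs. The fall of Car14 exceeded the change of each of the other 8 members (adjusted p = 0.00779 to 0.0275). Car9 differed from 7 of the 8, all but Car13 (difference of changes -0.74 for Car13 minus Car9, exact permutation p = 0.039, adjusted p = 0.0668). Car12 and Car2 were not told apart, with a difference of changes of -0.01 ± 0.21 (SE, adjusted exact permutation p = 0.952). Car2 fell more than Car5b, by a difference of -0.36 ± 0.12 (adjusted exact permutation p = 0.0328). The size of a change also depends on each probe set's background, which was not measured.

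Of the 6 other family genes, Car11 alone was called. Car11, a brain-expressed relative without enzyme activity, gave 6.90, 7.44 and 8.13 in denervated arrays and 7.82, 7.88 and 8.00 in sham arrays as lowest, median and highest value. Denervated replicate 2 lay above the sham range and the other 5 below it. The difference was -0.48 ± 0.17 (limma adjusted p = 0.0445), and the call was lost in 13 of 21 alternative analyses, including 11 of the 12 that left out 1 array (all but denervated replicate 2, adjusted p up to 0.0992). Car1, an enzyme of red cells and colon, stood at 0.53 ± 0.20 (adjusted p = 0.0602) and was called without sham replicate 3 or 5 or denervated replicate 2. Car6, secreted into saliva, Car7, a brain enzyme, and the membrane-bound Car15 differed by -0.07, -0.11 and -0.03.

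By place in the cell, 2 of 5 membrane-bound genes fell (Car12 and Car14) and 1 rose (Car9), 1 of 5 cytosolic genes fell (Car2), and 1 of 2 mitochondrial genes fell (Car5b). Of the 2 measured relatives without activity 1 fell (Car11, whose call was lost in 13 of 21 alternatives), and the secreted Car6 was not called. In all, 6 of the 15 family genes were called, 5 of them lower, where 28.7% of all genes were called and 16.9% were lower. Each class holds too few genes to be told apart from these shares.

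Carriers that work beside carbonic anhydrases moved in both directions. Of 17 bicarbonate and anion exchangers 4 rose and 4 fell, where 11.9% of all genes rose and 16.9% fell. The median log2 difference of these exchangers was 0.01. Slc26a3, an exchanger of chloride for bicarbonate, fell by 1.27 ± 0.11 (SE, limma adjusted p = 2.78e-05), the sodium bicarbonate cotransporter Slc4a4 by 0.74 ± 0.10, the anion exchanger Slc4a3 by 0.45 and the cotransporter Slc4a7 by 0.44. Both Slc26a3 means, 4.19 in denervated and 5.46 in sham arrays, lay below the array medians, so its signal over background is unknown. The rises were smaller, 0.42 in Slc4a8 and 0.25 to 0.32 in Slc4a5, Slc26a6 and Slc26a9. Their number was 2 when sham replicate 1, 3 or 6, or the first or sixth denervated array, was left out. The group means of Slc4a5 and Slc26a9 also lay below the array medians. Of 11 sodium-proton exchangers and partners 4 fell and 2 rose, among them Slc9a4 (-0.60), Slc9a7 (0.59), Slc9a2 (-0.52) and the scaffold Nherf1 (-0.40).

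The lactate list split by isoform. Slc16a3, the lactate exporter of glycolytic cells, rose by 0.56 ± 0.10 and Ldha, the muscle-type lactate dehydrogenase subunit, by 0.40 ± 0.07. Slc16a7 fell by 0.98 ± 0.10, Ldhb, the heart-type subunit, by 0.84 ± 0.12 and Slc16a1 by 0.57 ± 0.10 (limma adjusted p of these 5 at most 0.00144). All 5 had groups that did not overlap. Slc16a8, Bsg and Emb were not called.

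Most V-ATPase subunits, which build the proton pump of lysosomes and acid-secreting cells, were not called (19 of 23). Most genes of the whole series were not called either, with 11.9% higher and 16.9% lower. Atp6v0d2 (1.08 ± 0.17) and Tcirg1 (0.75 ± 0.15), both known from osteoclasts and macrophages, rose, as did Atp6v0b (0.29), and Atp6v0e2 fell by 0.66. Both Atp6v0d2 means, 5.47 in denervated and 4.39 in sham arrays, lay below the array medians. The count of 1 lower was 2 without denervated replicate 2 or 6.

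**Figure D4:**
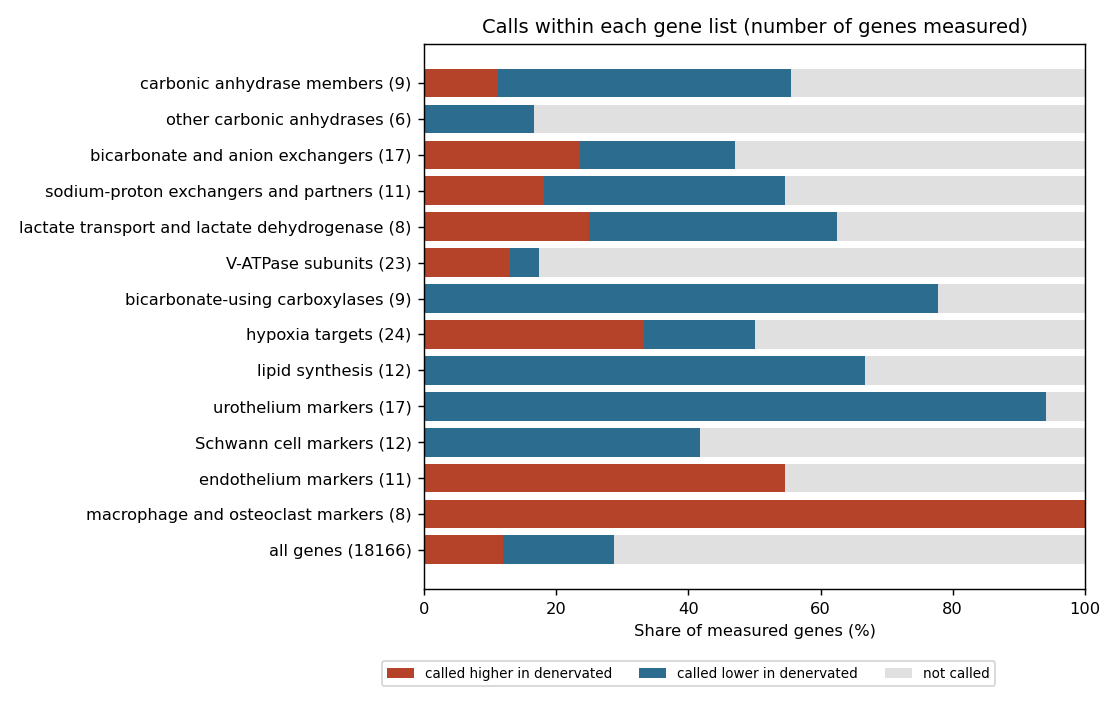
Share of measured genes called higher (red) or lower (blue) in denervated bladders and not called (grey), with the number of genes in brackets. Shown are the carbonic anhydrases, the lists of acid-base and metabolic genes, and the urothelium, Schwann cell, endothelium, and macrophage and osteoclast markers. The other marker lists and the receptors of inositol trisphosphate are not shown. The bottom bar is the background over all 18166 genes, 11.9% higher and 16.9% lower.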

How the data were processed

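The authors deposited log2 expression values for 36685 probe sets on 12 arrays, made by RMA in Affymetrix Expression Console 1.4.1.46, per the submitters' processing notes. The array's genome build is not given in the sources used here. Probe sets were named by the platform's gene table. Those with 1 gene (18511) were kept, 18394 of them matched by gene identifier to RefSeq (GRCr8), and the brightest probe set by mean stood for each of 18166 genes. Groups and replicate numbers come from the sample titles. Denervated minus sham was fitted on all genes with limma 3.58.1 under R 4.3.3 (lmFit, then eBayes, two-sided, no covariates), with Benjamini-Hochberg adjustment over all genes, a threshold of 0.05 and no filter or further normalization. The code was tested on simulated data with 200 changed genes. No detection call is given, and precision is limited by the number of arrays.

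The members and gene lists were chosen with earlier results of these data known. Named genes are all family members, in each list up to 4 called genes ranked by absolute change, Itpr1, and, for each member called with a change of at least 1 on the log2 scale, the 3 nearest profiles. Other list genes named were chosen after their values were seen, and so were the tests between pairs of members. Alternatives were quantile normalization, median centring, 2 brightness filters, trend and robust eBayes, array weights, an exact rank-sum test, averaging the probe sets of a gene, a block for replicate number, and omitting each array in turn.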

Additional observations from a re-analysis of the deposited data

Results flagged for a closer look

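In the 30 sets of 6 arrays formed by the 15 family genes and both groups, 3 single arrays lay far from the other 5 by Dixon's 95% criterion, which chance meets in about 1 set of 20. Car14 stood at 5.77 in denervated replicate 2, while the remaining 5 of that group had 4.34 to 4.67. Car6 stood at 6.34 in the same array. Car7 stood at 7.55 in sham replicate 6, and its difference was 0.30 without that array, not called.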

How the results depend on the processing

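The counts of 1 member higher and 4 lower were found in 20 of the 21 alternatives. With only genes above the median brightness, which leaves out Car4, Car8, Car9 and Car14, they were 0 and 3. Leaving out 1 array gave 1 higher and 4 lower each time. Car3 turned to 0.085 with array weights and ranged from -0.15 to 0.23 when arrays were left out, Car6 turned to 0.032 and ranged from -0.15 to 0.072, and Car7 ranged from -0.33 to 0.30. None of these 3 was called in any alternative, and the causes were not tested. Replicate numbers share only a number, since the correlation of same-numbered deviations was -0.11 to 0.10. With the replicate number as a block, 1 member was higher and 4 lower, and 1984 genes rose and 2476 fell, against 2153 and 3063 without it. Car1 was called with the block (adjusted p = 0.0208), with array weights and without the dimmest 25%. Car11 lost its call after quantile normalization (0.053) and by the rank-sum test (0.158). Bicarbonate exchangers numbered 2 higher, against 4, with centring, array weights, the block or the rank-sum test, and 0 higher and 2 lower among bright genes. Targets of hypoxia numbered 2 lower, against 4, by the rank-sum test. V-ATPase subunits numbered 2 or 3 lower, against 1, with centring, array weights or bright genes only. Adipocyte markers numbered 1 higher, against 2, with quantile normalization, centring, bright genes, the block or the rank-sum test, which left 2 lower, against 4. Skeletal muscle markers numbered 4 lower, against 2, with centring or without the dimmest 25%. By the rank-sum test 0 smooth muscle, skeletal muscle and neuron markers were higher, against 1 each, and 0 receptors of inositol trisphosphate lower, against 1. Sodium-proton exchangers numbered 1 higher, against 2, among bright genes, and neuron markers 0, against 1, under both brightness filters.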
